A study of Mus musculus with 30 samples.

Results

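Transcripts of 9 genes of the tricarboxylic acid cycle (Cs, Idh3a, Idh3b, Idh3g, Idh2, Ogdh, Suclg1, Fh1 and Mdh2) were examined in C2C12 myotubes. The genes were chosen by name, as rows of the raw count table, and they make up 9 of the 55487 genes counted. All 9 had enough counts to be tested, among 15907 genes tested in all. Their counts ranged from 638 to 5750 per gene and library.

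The cycle runs in the mitochondrial matrix, where acetyl-CoA from carbohydrate, fat and amino acids joins oxaloacetate and is oxidised to carbon dioxide. The reducing equivalents pass to the respiratory chain, and intermediates leave the cycle for amino acid, lipid and heme synthesis and are refilled by other reactions. Skeletal muscle raises its flux steeply on contraction, and citrate synthase is widely used as a marker of mitochondrial content in muscle.

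C2C12 is a mouse myoblast line that fuses into myotubes when serum is lowered. In all groups myotubes had differentiated for 4 days in low glucose medium with 2% horse serum and were then treated for 4 further days, 8 days in total. The 2% HS group stayed in 2% horse serum, and the SD group received the same medium without serum (serum deprivation). The MET group was serum-deprived with 100 nM metformin, a biguanide used in diabetes, the LEU group was serum-deprived with 500 nM of the amino acid leucine, and the MET+LEU group was serum-deprived with both. Each of the 5 groups had 6 libraries, and the cells are described as wild type. All groups come from a single immortalised line. The labels do not say whether the replicates were separate cultures, so p-values measure only the spread between these libraries, which may be technical. In such bulk samples fewer cells of a type and less RNA per cell cannot be told apart.

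Libraries held between 12784960 and 19604103 counts on genes. The myotube markers Myog, Myod1, Mef2c, Des, Acta1, Ckm, Tnnt3, Myh3, Mymk and Mymx were all detected, with a summed level between 9194 and 10991 CPM (counts scaled to the size of the library) over the 30 libraries. Of 10 markers of other cell types, 6 (Adipoq, Plin1, Pecam1, Cdh5, Ptprc and Adgre1) did not reach the filter for testing, and Adgre1, a macrophage marker, had 0 counts in every library. MET+LEU replicate 6 stood apart, with 7.64% of its counts on mitochondrial ribosomal RNA and 5.85% on nuclear ribosomal RNA. The highest shares elsewhere were 0.760% and 1.96%. Results on MET+LEU are therefore also given without it where the call or the value depends on it. Levels are TMM-scaled CPM, values after ± are standard deviations over 6 libraries, and genes were tested with edgeR's quasi-likelihood test at an adjusted p under 0.05 over all 15907 genes.

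The positions that follow are those of GENCODE M21 on the GRCm38 mouse assembly, and each gene is protein-coding. Cs (ENSMUSG00000005683, chr10:128337734-128362479, plus strand) encodes citrate synthase, which makes citrate and opens the cycle. Idh3a (ENSMUSG00000032279, chr9:54586334-54604661, plus strand), Idh3b (ENSMUSG00000027406, chr2:130279309-130284547, minus strand) and Idh3g (ENSMUSG00000002010, chrX:73778963-73786897, minus strand) encode the catalytic and the regulatory subunits of the NAD-dependent isocitrate dehydrogenase. Idh2 (ENSMUSG00000030541, chr7:80094846-80115392, minus strand) encodes the mitochondrial NADP-dependent isocitrate dehydrogenase, which also supplies NADPH. Ogdh (ENSMUSG00000020456, chr11:6291633-6356642, plus strand) encodes the substrate-binding subunit of the 2-oxoglutarate dehydrogenase complex. Suclg1 (ENSMUSG00000052738, chr6:73248382-73276911, plus strand) encodes the alpha subunit of succinyl-CoA ligase, the step with substrate-level phosphorylation. Fh1 (ENSMUSG00000026526, chr1:175600374-175625635, minus strand) encodes fumarase, and Mdh2 (ENSMUSG00000019179, chr5:135778480-135790398, plus strand) encodes mitochondrial malate dehydrogenase, which regenerates oxaloacetate.

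Promoter sequences from RefSeq (GRCm38.p6), from 250 bases before to 50 bases after the start of transcription, were matched by symbol for 8 of the 9 genes, in 13 windows. Idh3a had none. The promoters of Idh3b and Suclg1 are shown because these 2 genes carry the changes with MET+LEU, and that of Idh3g because it belongs to the same enzyme as Idh3b and did not pass the edgeR test in any comparison. They lie at chr2:130284402-130284701 (minus strand), chr6:73248255-73248554 (plus strand) and chrX:73786848-73787147 (minus strand), and are written 5′ to 3′ on the strand of the gene. Capitals mark the GABP core CCGGAAG, read on both strands.
Idh3b: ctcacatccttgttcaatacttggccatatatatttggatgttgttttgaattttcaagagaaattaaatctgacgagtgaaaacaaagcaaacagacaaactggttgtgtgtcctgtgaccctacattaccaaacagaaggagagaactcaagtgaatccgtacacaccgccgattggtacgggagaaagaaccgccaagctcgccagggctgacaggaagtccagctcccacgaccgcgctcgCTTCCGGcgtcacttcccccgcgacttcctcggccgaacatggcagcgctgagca
Suclg1: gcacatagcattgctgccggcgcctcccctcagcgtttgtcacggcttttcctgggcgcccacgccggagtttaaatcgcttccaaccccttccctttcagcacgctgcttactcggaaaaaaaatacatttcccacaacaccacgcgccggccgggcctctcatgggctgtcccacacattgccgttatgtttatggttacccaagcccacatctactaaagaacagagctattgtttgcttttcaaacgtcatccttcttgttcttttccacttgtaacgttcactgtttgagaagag
Idh3g: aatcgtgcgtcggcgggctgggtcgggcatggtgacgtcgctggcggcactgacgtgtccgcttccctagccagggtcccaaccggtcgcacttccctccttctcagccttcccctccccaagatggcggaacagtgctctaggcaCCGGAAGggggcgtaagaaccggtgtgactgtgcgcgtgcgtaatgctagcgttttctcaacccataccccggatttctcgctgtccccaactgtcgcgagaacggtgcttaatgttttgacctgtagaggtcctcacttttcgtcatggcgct

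GABP, NRF1 and the estrogen-related receptors (ERR) are factors known for binding promoters of nuclear genes of mitochondrial proteins. The GABP core was found in the promoters of Idh3b, on the opposite strand and 5 bases before the start, and of Idh3g, 104 bases before the start, and in 8.86% of 32851 mouse promoters. The NRF1 core GCATGCGC was found in 1 of the 8 genes, Ogdh, in 2 overlapping windows of its 6, and in 2.71% of promoters. The extended ERR site TCAAGGTCA was found in 0 of the 8 and in 0.423% of promoters. The Suclg1 window held none of these letters. Such matches describe the sequence and were not tested as binding sites.

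Compared per length, as CPM per kilobase of exon averaged over the 30 libraries, Mdh2 was highest of the 9 at 55.4 and Suclg1 lowest at 15.4. Between them came Ogdh at 47.4, Cs at 44.3, Idh3g at 41.1, Idh3b at 30.6, Idh2 at 27.1, Idh3a at 21.4 and Fh1 at 18.2. The order of neighbours held in at least 29 of 30 libraries except for Cs over Idh3g, which held in 25. Idh3a, the catalytic subunit, thus had the lowest level per length of the 3 subunits of its enzyme, and these levels depend on the exon length taken from the annotation. Among the further cycle genes described, levels ran from 4.81 for Suclg2, the GTP-forming ligase subunit, to 76.7 for Sdhd, a membrane anchor of succinate dehydrogenase.

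The 9 genes varied little between groups. The highest group mean exceeded the lowest by a factor of 1.03 for Mdh2, 1.04 for Fh1, 1.06 for Idh2, 1.07 for Idh3a and 1.08 for Cs. It did so by a factor of 1.11 for Ogdh, 1.14 for Idh3g, 1.18 for Idh3b and 1.27 for Suclg1. The coefficient of variation within groups lay between 3.37% for Idh3a and 7.86% for Idh3g, so that for most of the genes the groups spread over each other.

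**Figure D1:**
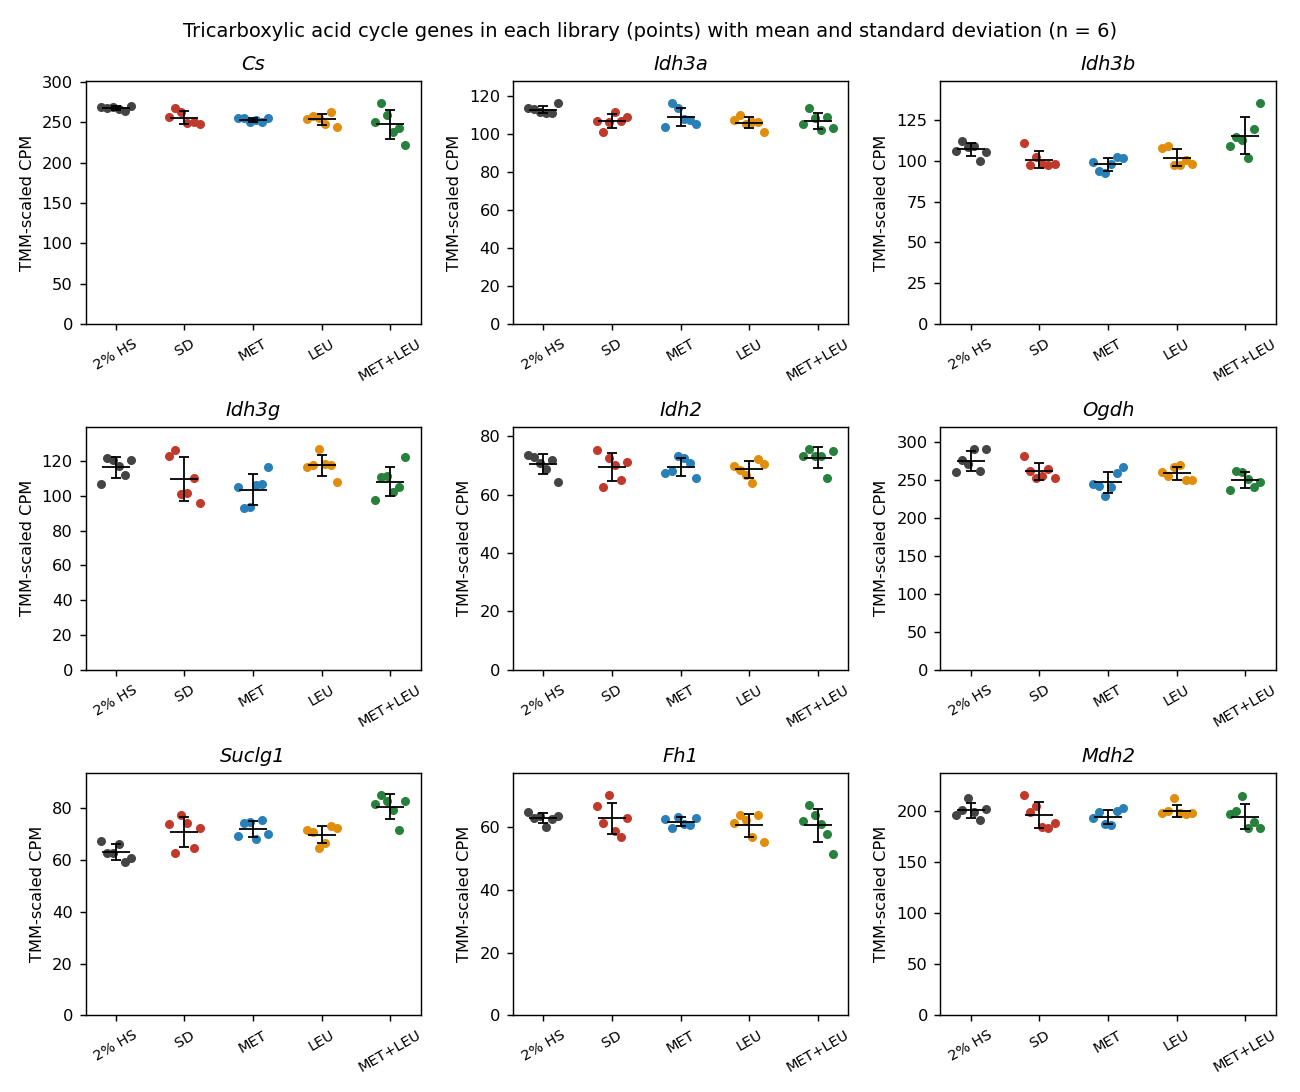
TMM-scaled CPM (vertical axis, from 0) of the 9 genes in each of the 30 libraries, 1 panel per gene, with the 5 groups side by side; points are libraries, and the bar and whiskers are the mean and standard deviation of 6 libraries. Suclg1 has its lowest mean in 2% HS (63.2) and its highest in MET+LEU (80.5), and the Idh3b mean in MET+LEU (116) includes replicate 6 at 136, while Mdh2 and Fh1 stay nearly level.

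Serum deprivation left most of these genes near their level in serum. In SD vs. 2% HS, 1 of the 9 genes was upregulated and 0 were downregulated, where 13.9% of all genes tested were upregulated and 13.9% were downregulated. DESeq2 and limma-voom also gave 1 and 0. At an unadjusted p under 0.05 the count was 2, Suclg1 and Idh3a, beside 6028 of the 15907 genes tested. The gene that rose was Suclg1, whose lowest, median and highest library were at 59.2, 62.8 and 67.3 CPM in 2% HS and at 62.8, 73.0 and 77.3 CPM in SD. The lowest SD libraries lay inside the 2% HS range, while the others lay above it. The log2 fold change was 0.16 (standard error 0.05, adjusted p = 0.00731).

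The other 8 genes had log2 fold changes between -0.09 and 0.00 in SD vs. 2% HS. Idh3b was at -0.09, Idh3g at -0.09, Idh3a at -0.08, Ogdh at -0.07, Cs at -0.07, Mdh2 at -0.03, Idh2 at -0.02 and Fh1 at 0.00. The lowest adjusted p among them was 0.0954, for Idh3a, and their 95% intervals together spanned -0.21 to 0.10 on the log2 scale. A change of these genes beyond about 0.865-fold or 1.07-fold was thus outside every interval. The median log2 fold change of the 9 was -0.07, and the median of its absolute value was 0.07, compared with 0.00 and 0.14 over all genes tested. All genes tested include genes with fewer counts and less precise values, and they were not matched to the 9 for counts. Without SD replicate 1, Ogdh also passed the test as lower (log2 fold change -0.10, adjusted p = 0.0493). It did so with an offset for GC content as well (-0.09, adjusted p = 0.0423).

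Metformin and leucine alone changed none of the 9 genes past the threshold. In MET vs. SD the count was 0 of 9 with edgeR, DESeq2 and limma-voom, beside 0.157% of all genes. At an unadjusted p under 0.05 it was 1, Ogdh, beside 1597 of the 15907 genes tested. Ogdh had a median of 243 CPM in MET (lowest 229, highest 268) and of 259 CPM in SD (lowest 252, highest 282), with overlapping groups and a log2 fold change of -0.08 (adjusted p = 0.441). In LEU vs. SD the count was 0 of 9 with the same 3 tools, beside 0.553% of all genes. It was 0 at an unadjusted p under 0.05, beside 1588 of the 15907 genes tested. The log2 fold changes lay between -0.09 and 0.03 with MET and between -0.06 and 0.10 with LEU. The 95% intervals spanned -0.21 to 0.11 and -0.16 to 0.22, with the upper end in LEU set by Idh3g, the regulatory gamma subunit.

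The combination raised 2 of the 9 genes. In MET+LEU vs. SD, Idh3b and Suclg1 were upregulated (10.6% of all genes tested were upregulated) and 0 were downregulated (7.8% of all genes). DESeq2 and limma-voom gave the same counts. So did an unadjusted p under 0.05, which 4961 of the 15907 genes tested reached. Idh3b had its lowest, median and highest library at 97.4, 98.3 and 111 CPM in SD and at 102, 114 and 136 CPM in MET+LEU. All MET+LEU libraries lay above the SD median, but the groups overlapped, and the highest value was that of replicate 6. The log2 fold change was 0.19 (standard error 0.05, adjusted p = 0.00235), and without replicate 6 it was 0.14 (adjusted p = 0.0144).

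Suclg1 was at 71.5, 82.2 and 85.2 CPM (lowest, median and highest) in MET+LEU, where SD ranged from 62.8 to 77.3 CPM. The lowest MET+LEU library lay inside the SD range. The log2 fold change was 0.18 (standard error 0.05, adjusted p = 0.00463), and it was 0.17 (adjusted p = 0.00927) without replicate 6. When just these groups were modelled the estimate was 0.18 and no longer passed the threshold (adjusted p = 0.0525), while Idh3b did (0.19, adjusted p = 0.0433). The direction of change in SD vs. 2% HS was the same for Suclg1, and its mean level thus went from 63.2 ± 3.08 CPM in 2% HS to 70.8 ± 5.77 in SD and 80.5 ± 4.81 in MET+LEU.

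The other 7 genes had log2 fold changes between -0.07 (Ogdh) and 0.06 (Idh2) in MET+LEU vs. SD. Cs was at -0.05, Fh1 at -0.05, Idh3g at -0.02, Mdh2 at -0.01 and Idh3a at 0.00, and all 95% intervals lay between -0.15 and 0.15. The median of the 9 was -0.01, as it was over all genes tested (-0.01). The absolute change had a median of 0.05 for the 9 and 0.12 over all genes tested, which were again not matched for counts. With an offset for GC content, Idh2 also passed (log2 fold change 0.13, adjusted p = 0.0350).

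Of the 3 subunits of NAD-dependent isocitrate dehydrogenase, Idh3b alone passed the test in MET+LEU vs. SD, and a difference between the subunits was not tested. As a share of the 3 subunits per length, Idh3b held 32.4% ± 0.789 in 2% HS, and 32.4% ± 1.45 after SD. The share was 32.4% ± 0.497 with MET, 31.6% ± 1.32 with LEU and 35.5% ± 1.46 with MET+LEU. The lowest MET+LEU library, at 33.9%, met the highest SD library, also at 33.9%. The highest MET+LEU library, at 37.7%, was replicate 6, which is included in the mean. Idh3g held 44.5% ± 2.89 in SD and 42.2% ± 1.13 in MET+LEU, and Idh3a held 23.2% ± 1.76 and 22.3% ± 1.49. Over the 30 libraries Idh3b and Idh3g were positively correlated (r = 0.36, and 0.52 within groups). These shares and correlations are descriptions.

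**Figure D2:**
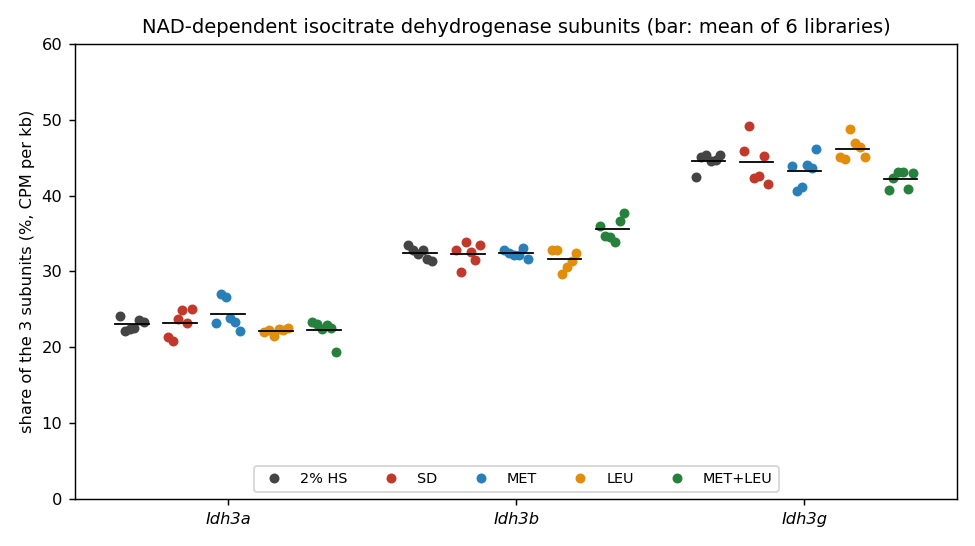
Share of each subunit gene in the summed CPM per kilobase of Idh3a, Idh3b and Idh3g (vertical axis, percent, from 0) for the 30 libraries; points are libraries coloured by group, and bars are means of 6. The Idh3b share is 32.4% in SD and 35.5% in MET+LEU, where every library is at 33.9% or more, and Idh3a is the lowest of the 3 throughout. The highest MET+LEU library, at 37.7%, is replicate 6.

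The end of Idh3b overlaps that of its neighbour Nop56, a ribosome biogenesis gene on the opposite strand, by 5 bases. Nop56 had a median of 76.2 CPM in SD and 80.7 CPM in MET+LEU, with a log2 fold change of 0.13 (adjusted p = 0.0496). It passed in 9 of 42 settings and was at 0.08 (adjusted p = 0.264) without MET+LEU replicate 6. Its part in the Idh3b result was not tested. Fh1 overlaps Kmo on the opposite strand by 5255 bases, and Kmo had at most 2 counts in any library. Cs contains the small nucleolar RNA gene Gm23182, and Idh2 overlaps Gm45203 on the same strand by 1831 bases.

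In MET+LEU vs. 2% HS, where both the missing serum and the treatment differ, Suclg1 was upregulated and Cs and Ogdh were downregulated. Of all genes tested, 22.1% were upregulated and 20.3% downregulated in this comparison. For Suclg1 all 6 MET+LEU libraries (lowest 71.5 CPM) lay above all 6 in 2% HS (highest 67.3 CPM), with a log2 fold change estimated at 0.35 (standard error 0.05, adjusted p = 5.97e-08), a 1.27-fold difference. This was the only gene of the 9 whose groups did not overlap in this or in any other pairwise comparison made. The share of all genes tested without overlap was not determined, for this or for any comparison below.

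Cs, whose product starts the cycle, was at 264, 268 and 271 CPM (lowest, median and highest) in 2% HS and at 222, 247 and 274 CPM in MET+LEU. The 2% HS libraries were tightly grouped, and 1 MET+LEU library lay above them and the others below, the lowest being replicate 6. The log2 fold change was -0.11 (standard error 0.03, adjusted p = 0.00655), and -0.08 (adjusted p = 0.0259) without replicate 6. Ogdh was at 260, 274 and 291 CPM in 2% HS and at 237, 249 and 262 CPM in MET+LEU. The highest MET+LEU libraries lay inside the 2% HS range and the others below it, with a log2 fold change estimated at -0.14 (standard error 0.04, adjusted p = 0.00203).

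The remaining 6 genes had log2 fold changes between -0.11 (Idh3g) and 0.11 (Idh3b) in MET+LEU vs. 2% HS. Idh3a was at -0.08 (adjusted p = 0.0699), and it passed the threshold as lower with upper-quartile scaling (-0.10, adjusted p = 0.0151), with DESeq2 (-0.08, adjusted p = 0.0394), with limma-voom (-0.08, adjusted p = 0.0386) and with a GC offset (-0.12, adjusted p = 0.00581). It also passed with 10 or more counts required in every library (-0.09, adjusted p = 0.0291) and without MET+LEU replicate 2 or 5. Idh3g, at -0.11 (adjusted p = 0.160), passed with limma-voom (-0.15, adjusted p = 0.0212). Idh3b, at 0.11 (adjusted p = 0.0580), passed without MET+LEU replicate 4 (0.14, adjusted p = 0.0147), 2% HS replicate 2 (0.12, adjusted p = 0.0423) or SD replicate 1 (0.11, adjusted p = 0.0458) and was at 0.06 without replicate 6. The SD and the MET+LEU comparisons share libraries with this one, so their values are given side by side and their likeness is no separate evidence.

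Suclg1 and Idh3b were also higher in MET+LEU than in either treatment alone. In MET+LEU vs. MET both passed (2 of 9 genes, beside 5.54% of all genes upregulated), with log2 fold changes of 0.24 for Idh3b (standard error 0.05, adjusted p = 0.00113) and 0.16 for Suclg1 (standard error 0.05, adjusted p = 0.0221). Without MET+LEU replicate 6, Idh3b was at 0.18 (adjusted p = 0.00456). MET libraries were at 93.0, 98.7 and 102 CPM (lowest, median and highest) for Idh3b and at 68.0, 72.1 and 75.5 CPM for Suclg1, so both genes overlapped with MET+LEU at its lower end. The Suclg1 call was lost without MET+LEU replicate 6 (log2 fold change 0.15, adjusted p = 0.0510), without MET+LEU replicate 1 (0.15, adjusted p = 0.0517), without MET replicate 1 (0.15, adjusted p = 0.0543), without MET replicate 4 (0.15, adjusted p = 0.0656) and in a model of these groups alone (0.15, adjusted p = 0.0624).

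In MET+LEU vs. LEU both genes passed as well (2 of 9, beside 4.61% of all genes upregulated), with log2 fold changes of 0.21 for Suclg1 (adjusted p = 0.00636) and 0.18 for Idh3b (adjusted p = 0.0162). LEU libraries were at 97.8, 99.5 and 109 CPM (lowest, median and highest) for Idh3b and at 64.6, 71.2 and 73.0 CPM for Suclg1. The Idh3b call was lost without MET+LEU replicate 6 (0.12, adjusted p = 0.0872) and in a model of these groups alone (0.17, adjusted p = 0.101). Whether the combination departed from the sum of both treatments was tested by the interaction. In it 0 of 9 genes passed with edgeR and limma-voom, beside 0.0503% of all genes with edgeR. DESeq2 also called 0 of the 9. It gave an adjusted p to just 1102 genes in the interaction, so some of the 9 may have had none. With edgeR at an unadjusted p under 0.05 there were 2, beside 1389 of the 15907 genes tested. These were Idh3b (0.22, standard error 0.07, adjusted p = 0.249) and Suclg1 (0.19, standard error 0.07, adjusted p = 0.352). The 95% interval for Idh3b, before adjustment, ran from 0.09 to 0.35. Without MET+LEU replicate 6 the lowest adjusted p of the 9 genes in the interaction was 0.387.

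A further 8 cycle genes were tested, namely Dlst, Dld, Suclg2, Sucla2, Sdha, Sdhb, Sdhc and Sdhd. They include the partners of Ogdh and Suclg1 in their complexes. Of these 8, 2 were upregulated and 0 downregulated in MET+LEU vs. SD, beside 10.6% and 7.8% of all genes tested. In SD vs. 2% HS the counts were 2 and 0, beside 13.9% in each direction. In MET vs. SD and LEU vs. SD they were 0 and 0, beside 0.157% and 0.553% of all genes called. DESeq2 and limma-voom gave the same counts. At an unadjusted p under 0.05 there were 1 with MET and 3 with LEU, beside 1597 and 1588 of the 15907 genes tested. The genes that rose with the combination were Sucla2 and Dld.

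Sucla2, which encodes the ADP-forming beta subunit that pairs with the Suclg1 product, was at 83.0, 84.2 and 87.1 CPM (lowest, median and highest) in SD and at 101, 105 and 124 CPM in MET+LEU. Every MET+LEU library exceeded every SD library, with a log2 fold change estimated at 0.34 (standard error 0.04, adjusted p = 1.23e-07). The difference held against MET alone (0.23, adjusted p = 3.75e-04) and LEU alone (0.23, adjusted p = 8.97e-04), and the value was 0.27 or more in each of 42 settings. Suclg2, the alternative GTP-forming beta subunit, was at 20.3, 21.3 and 22.1 CPM in SD and at 21.7, 23.2 and 24.5 CPM in MET+LEU. Its groups overlapped and its log2 fold change was 0.12 (adjusted p = 0.143).

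Dld, which encodes the dihydrolipoamide dehydrogenase shared by the 2-oxoglutarate and pyruvate dehydrogenase complexes, was at 124, 141 and 143 CPM in SD and at 161, 166 and 194 CPM in MET+LEU. The groups did not overlap, and the log2 fold change was 0.32 (standard error 0.04, adjusted p = 6.12e-07). With a GC offset it was 0.23, the lowest of 42 settings, and Dld was called in all 42. Under that offset Dld was also upregulated in SD vs. 2% HS (0.09, adjusted p = 0.0370), a call made in 1 of 42 settings. Of the other genes of the 2-oxoglutarate dehydrogenase complex, neither Ogdh, at -0.07, nor Dlst, the succinyltransferase, passed the test (adjusted p = 0.931 for Dlst). In SD vs. 2% HS the genes that rose were Dlst (0.09, adjusted p = 0.0108) and Sdhc, a membrane anchor of succinate dehydrogenase (0.14, adjusted p = 0.0221). The Sdhc call was lost without 2% HS replicate 2 (0.12, adjusted p = 0.0694) or 6 (0.13, adjusted p = 0.0584) and without SD replicate 1 (0.12, adjusted p = 0.0608) or 6 (0.13, adjusted p = 0.0504). Against 2% HS, MET+LEU had 5 of the 8 upregulated and 0 downregulated (Sucla2 at 0.39, Dld at 0.34, Sdhc at 0.16, Sdha at 0.10 and Dlst at 0.09), and the count fell to 3 with upper-quartile scaling. Of all genes tested, 22.1% were upregulated and 20.3% downregulated in that comparison. Of the cycle's paralogs, Csl had at most 3 counts and was not tested, and Ogdhl was at 1.90 ± 0.524 CPM in SD and Dhtkd1 at 6.33 ± 0.869 CPM.

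**Figure D3:**
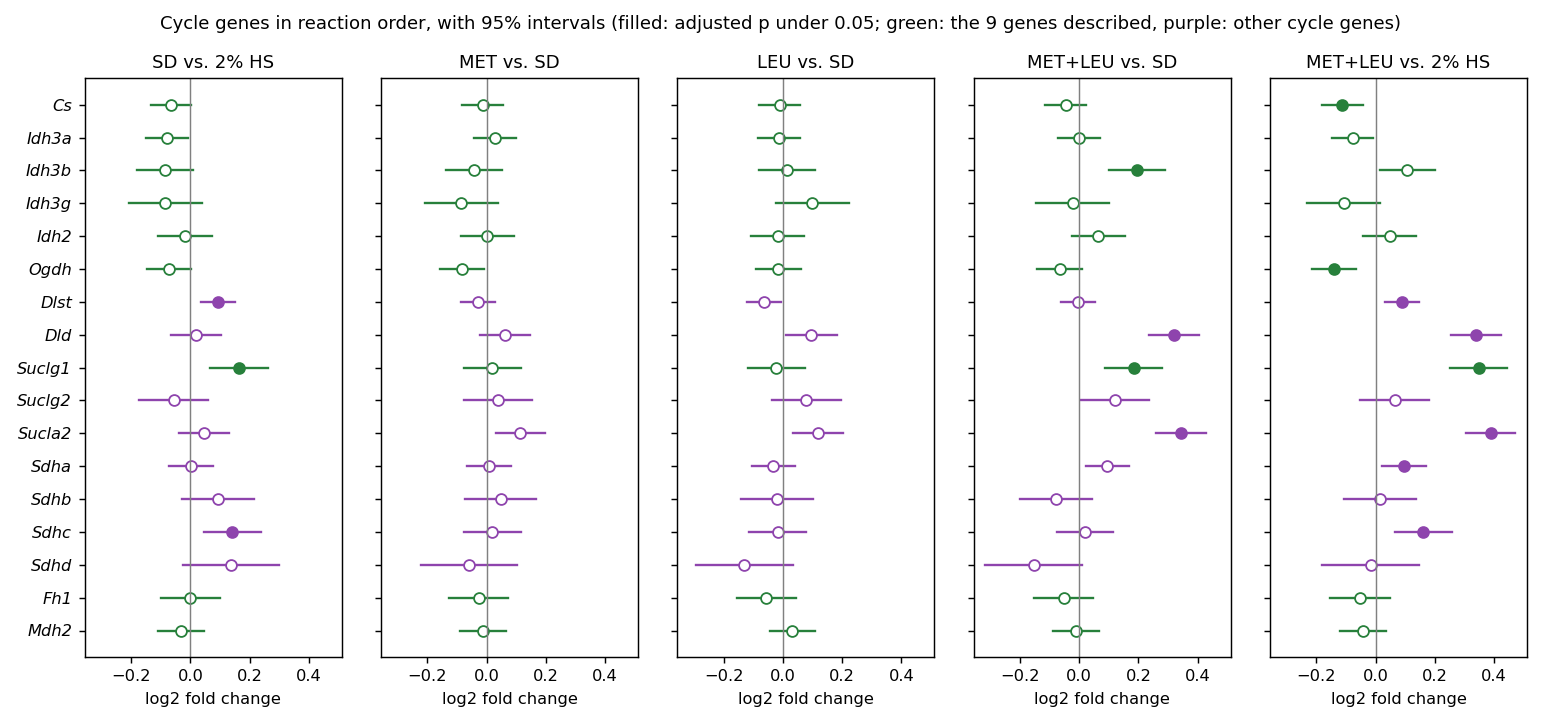
Log2 fold changes (horizontal axis) of the 9 cycle genes and the 8 further ones in reaction order from Cs to Mdh2, with 95% intervals, in 5 comparisons; filled points have an adjusted p under 0.05, green marks the 9 genes described and purple the further cycle genes. Suclg1 (0.18), Sucla2 (0.34) and Dld (0.32) lie to the right in MET+LEU vs. SD, while MET vs. SD and LEU vs. SD hold no filled point.

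Genes of the routes into and out of the cycle changed in SD vs. 2% HS. Of 12 genes of anaplerosis and cataplerosis, the reactions that refill and drain the cycle, 7 were downregulated and 1 was upregulated, beside 13.9% of all genes tested in each direction. Gpt2, the mitochondrial alanine aminotransferase, fell from a median of 240 to 138 CPM (log2 fold change -0.79, adjusted p = 1.85e-16), Pcx, pyruvate carboxylase, from 50.3 to 35.5 CPM (-0.52, adjusted p = 6.03e-07), Pck2 from 33.4 to 25.3 CPM (-0.41) and the mitochondrial malic enzyme Me3 by 0.40. The groups did not overlap for any of these 4 genes. Of 11 genes of pyruvate dehydrogenase and its regulation, 5 were downregulated and 0 upregulated, with Pdk1 and Pdk4, kinases that inhibit the complex, at -0.56 (adjusted p = 3.33e-06) and -0.49 (adjusted p = 2.01e-08). The phosphatase gene Pdp1 was at -0.26 and the kinase gene Pdk2 at -0.18. The median log2 fold change was -0.15 in both lists and 0.00 over all genes tested.

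Of 6 cytosolic counterparts, 3 were upregulated in SD vs. 2% HS and 1 was downregulated, beside 13.9% of all genes tested in each direction. Idh1, the cytosolic NADP-dependent isocitrate dehydrogenase, rose from a median of 68.9 to 88.4 CPM (log2 fold change 0.34, adjusted p = 7.86e-10), without overlap, where its mitochondrial counterpart Idh2 was at -0.02. Got1, the cytosolic aspartate aminotransferase, fell by 0.28, and Me1 and Acly were at 0.13 and 0.11. The rises of Me1 and Acly depended on the scaling, since with upper-quartile scaling 1 of the 6 was upregulated. Of 8 mitochondrial carriers tested, 1, Slc25a12, was upregulated (0.14) and 0 were downregulated.

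In the lists of anaplerosis, pyruvate dehydrogenase, cytosolic counterparts and carriers (12, 11, 6 and 8 genes tested), 6 genes were called in MET+LEU vs. SD, where 18.4% of all genes were, so the count is near the background. Of the anaplerosis list, Mut, which feeds propionate carbon in as succinyl-CoA, rose from a median of 34.5 to 42.7 CPM (0.31, adjusted p = 5.56e-05), and Pck2 fell from 25.3 to 20.1 CPM (-0.31, adjusted p = 8.75e-04). Idh1 rose by 0.12 (adjusted p = 0.0160) and Pdha1, the E1 alpha subunit of pyruvate dehydrogenase, by 0.10 (adjusted p = 0.0162), the single called gene of its list in each case. Both calls were lost in a model of these groups alone and with a GC offset, and that of Pdha1 also with limma-voom, with a filter of more than 5 counts in total and without MET+LEU replicate 2 (0.09, adjusted p = 0.0505). Pdha1 passed in the interaction as well (0.21, adjusted p = 0.0336). Its adjusted p was under 0.05 in 20 of 42 settings, among which the setting with the 0.01 threshold repeats the main fit. Of the carriers, Slc25a10, the dicarboxylate carrier, fell from 10.6 ± 1.43 to 7.32 ± 1.18 CPM (-0.53, adjusted p = 6.70e-04) and the glutamate carrier Slc25a22 from 11.4 to 9.74 CPM (-0.35, adjusted p = 0.00851).

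**Figure D4:**
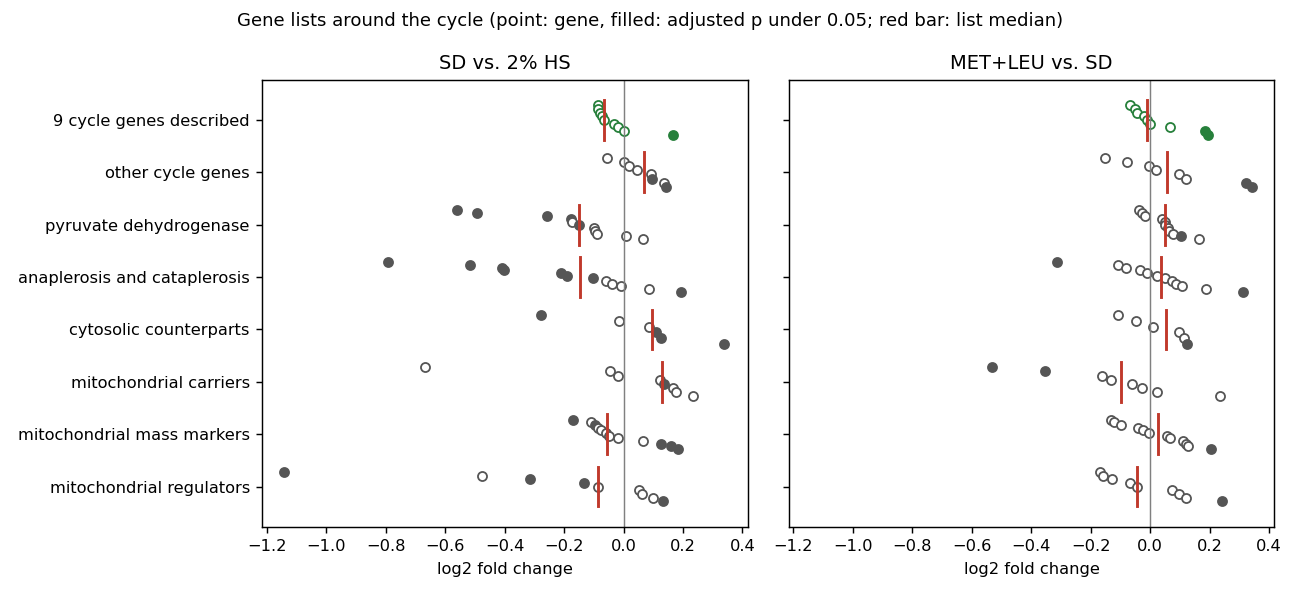
Log2 fold changes (horizontal axis, the same in both panels) of the 9 cycle genes and of 7 lists around the cycle, with SD vs. 2% HS on the left and MET+LEU vs. SD on the right; points are genes, filled where the adjusted p is under 0.05, and red bars are list medians. The 9 cycle genes lie between -0.09 and 0.16 in SD vs. 2% HS, where Gpt2 (-0.79), Pdk1 (-0.56) and Ppargc1a (-1.14) lie far to the left.

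Of 12 markers of mitochondrial mass, 3 were upregulated in SD vs. 2% HS (Phb at 0.18, Timm23 at 0.16 and Hspd1 at 0.12) and 2 downregulated (Hspa9 at -0.17 and Vdac2 at -0.10), with a list median of -0.05, where 13.9% of all genes tested were called in each direction. With MET+LEU vs. SD 1 gene of the 12, Hspd1, was upregulated (0.20, adjusted p = 8.35e-04), beside 10.6% of all genes. Among 9 regulators of mitochondrial gene expression, Ppargc1a, the PGC-1alpha coactivator gene, fell in SD vs. 2% HS. Its libraries were at 7.39, 8.59 and 10.2 CPM (lowest, median and highest) in 2% HS and at 3.52, 3.96 and 4.06 CPM in SD, with no overlap (-1.14, adjusted p = 3.14e-10). Its related coactivator gene Ppargc1b was at -0.31 (adjusted p = 5.66e-07). Gabpa, a subunit of GABP, was at -0.13 (adjusted p = 0.0449) in SD vs. 2% HS and at 0.24 (adjusted p = 5.57e-04) in MET+LEU vs. SD, and Yy1 rose by 0.13 in the first comparison.

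Some markers of cell state differed between the groups. Of all genes tested, 13.9% were called in each direction in SD vs. 2% HS. In MET+LEU vs. SD, 10.6% were upregulated and 7.8% downregulated. Of 10 myotube markers, 1 was upregulated and 3 downregulated in SD vs. 2% HS. Their log2 fold changes ran from -0.98 (Ckm) to 0.13, 4 positive and 6 negative, with a median of -0.09. In MET+LEU vs. SD 3 were upregulated and 1 downregulated. The values ran from -0.32 to 0.82 (Tnnt3), 4 positive and 6 negative, with a median of -0.02. Of 8 markers of undifferentiated or cycling cells, 1 was upregulated and 1 downregulated in SD vs. 2% HS, with 6 positive and 2 negative values. In MET+LEU vs. SD 0 were upregulated and 4 fell (Ccnb1 at -0.89, Top2a at -0.64, Cdk1 at -0.61 and Mki67 at -0.35). The values were 2 positive, up to 0.12, and 6 negative. In LEU vs. SD 2 of the 8 were already downregulated, beside 0.321% of all genes. The summed level of the 8 was 411 to 457 CPM in SD and 355 to 400 CPM in MET+LEU. Of 10 markers of other cell types, 4 were tested. In SD vs. 2% HS 3 markers of fibroblasts (Lum, Dcn and Pdgfra) were upregulated and 0 of the 4 downregulated. In MET+LEU vs. SD 1 of the 4 was upregulated and 0 downregulated. The values were 2 positive and 2 negative, from -0.43 to 0.48, with a median of 0.01. The summed level of the 10 was 26.01 to 35.1 CPM in 2% HS, 42.4 to 54.5 CPM in SD and 53.8 to 63.1 CPM in MET+LEU. The part of these shifts in the Suclg1 and Idh3b results was not tested.

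The 9 genes shared only part of their variation from library to library. Over the 30 libraries, the Pearson correlation of log2 CPM between 2 of the genes ranged from -0.49 to 0.73, with a median of 0.14 over 36 pairs, of which 23 were positive. The highest was that of Cs and Fh1 (0.73, and 0.77 for deviations from the group means), followed by Idh3g and Ogdh (0.69 and 0.66). Suclg1 went with Idh2 (0.57 and 0.73) and against Ogdh (-0.49), although the latter was -0.06 within groups. These are descriptions, and libraries share their total counts and base composition across genes.

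The genes outside the lists whose pattern was most like the mean of the 9 standardised profiles were Eef1a1, a translation elongation factor gene (r = 0.83 over 30 libraries, 0.80 within groups), Cox7c, a subunit of cytochrome c oxidase (0.81 and 0.81), and Atp5b, the beta subunit of ATP synthase (0.80 and 0.76). Eno3, the muscle enolase gene, was at 0.77 and 0.70, and Card19 at 0.76 and 0.73. These correlations describe libraries that share depth and scaling and carry no test.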

How the data were processed

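RNA-seq of 30 libraries (5 groups of 6) was analysed. The authors depleted ribosomal RNA, prepared stranded total RNA libraries and sequenced them with paired reads of 150 bases. The deposited values are raw counts per gene, whole numbers without normalization. The submitters' processing notes name cutadapt 1.16, STAR 2.7.6a, featureCounts 1.6.3, DESeq2 1.30.1 and the GRCm38 build, while the strand setting of the counting is not given in the sources used here. GENCODE M21 gave symbols, positions, exon lengths and GC content for 55227 of 55487 genes, and the 260 others held 0.00434% of the counts.

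Genes were kept with edgeR 4.0.16 filterByExpr (minimum count 10, minimum total count 15), scaled by TMM and fitted with 1 mean per group over all 30 libraries (glmQLFit, robust) in R 4.3.3. Each comparison used the quasi-likelihood F test, adjusted by Benjamini-Hochberg over 15907 genes. A correction for GC content used a lowess fit with a span of 0.3. The other alternatives were upper-quartile and DESeq2 scaling, DESeq2 1.42.0, limma-voom 3.58.1, other count filters, modelling just the groups compared, dropping the robust option, blocking on replicate number, an adjusted p under 0.01 and omitting each library in turn. Scripts were tested on simulated data.

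The 9 genes and the lists were chosen with earlier results of these data known. All 9 are named, as are other cycle genes past the threshold in SD vs. 2% HS or MET+LEU vs. SD, up to 4 called genes of the largest absolute change per other list, and the 5 genes most correlated with the mean profile of the 9. Further genes of these lists and Nop56, Kmo, Gm23182 and Gm45203 were named after their values were seen. Depth limits precision through counting error, and the genes' counts were 638 or more in each library. A further gene of the cycle is not reported here.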

Additional observations from a re-analysis of the deposited data

Results flagged for a closer look

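The level of each of the 9 genes was examined in each group for a library far from the other 5, by Dixon's criterion for 6 samples (the gap to the nearest library as a share of the group's range, at the 95% critical value). Of 45 combinations of gene and group, 2 were found, and chance flags about 1 in 20 groups. Idh2 in MET+LEU replicate 5 was at 65.6 CPM, where the next library of the group was at 73.1 CPM (a gap of 0.747 of the range). Mdh2 in LEU replicate 3 was at 213 CPM, where the next library of the group was at 199.9 CPM (0.851 of the range). Mdh2 passed no test, Idh2 passed in MET+LEU vs. SD under the GC offset alone, and neither library was the one with the high share of ribosomal RNA.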

How the results depend on the processing

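Under 11 alternatives and 30 fits that each left out 1 library, no called value of the 9 genes changed direction. Values that were called in neither fit changed sign 25 times among 792, in 7 results of at most 0.02 on the log2 scale, and 63 times among 2160 in the fits without 1 library. The number of called genes among the 9 in MET+LEU vs. 2% HS was 5 with limma-voom in place of 3. With only the groups compared it was 1 in place of 2 in MET+LEU vs. SD, MET+LEU vs. MET and MET+LEU vs. LEU, and with an adjusted p under 0.01 it was 1 in MET+LEU vs. MET and in MET+LEU vs. LEU. With the GC offset it was 2 in place of 1 in SD vs. 2% HS, 3 in place of 2 in MET+LEU vs. SD and 4 in place of 3 in MET+LEU vs. 2% HS. Leaving out 1 library gave 1 to 2 in SD vs. 2% HS, 3 to 4 in MET+LEU vs. 2% HS, 1 to 2 in MET+LEU vs. MET and 1 to 2 in MET+LEU vs. LEU. With fewer groups fewer libraries estimate the spread, and otherwise the cause was not tested.

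Libraries with the same replicate number in different groups deviated from their group means with a mean pairwise correlation of 0.0157 (from -0.09 to 0.14 over 60 pairs), against -0.00314 for different numbers. Of 30 libraries, 11 correlated best with their own number, where 5 are expected if numbers carry nothing, a hint of a shared number from the data and not the design. Since not every pair was over 0.1 and the labels state no shared batch, the numbers were not used as pairs. With the replicate block the number of called genes was 2 in MET+LEU vs. SD and 1 in SD vs. 2% HS, as without it, and no other call of the 9 genes changed.

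Over all genes, the counts that moved by over 1.5 times under the alternatives, and in the fits without 1 library, were those of the interaction (8, from 1 to 28, 1 without LEU replicate 3 and 13 without MET+LEU replicate 6), of MET vs. SD (25, from 3 to 120, 4 without MET replicate 4 and 162 without MET+LEU replicate 6), of LEU vs. SD (88, from 25 to 216, 43 without LEU replicate 4 and 263 without MET+LEU replicate 6), of MET+LEU vs. SD (2931, down to 1345 with only the groups compared), of MET+LEU vs. MET (1382, down to 480, and 741 without MET+LEU replicate 6) and of MET+LEU vs. LEU (999, down to 260, and 456 without LEU replicate 3). With upper-quartile scaling 631 genes were higher and 637 lower in MET+LEU vs. MET (881 and 501 with TMM), and 417 and 356 in MET+LEU vs. LEU (733 and 266). No scaling moved the median of all genes by more than 0.04 on the log2 scale.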
